A study of Mus musculus with 8 samples.

Results

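The genes of kisspeptin, the tachykinins and their receptors were read in 4 hypothalamic nuclei of the mouse. The members are *Kiss1*, *Tac2* and *Tac1*, which encode peptide precursors, and *Kiss1r*, *Tacr3* and *Tacr1*, which encode receptors. Every array probe whose RefSeq identifier belongs to one of these 6 genes was taken, whatever its signal, which gave 6 of the 20284 genes named on the array and 7 of its 55681 probes: *Kiss1* has 2 probes and each other gene has 1.

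The samples were total RNA from the arcuate nucleus (Arc), the ventromedial nucleus (VMH), the dorsomedial nucleus (DMH) and the lateral hypothalamus (LH), cut by laser microdissection from female C57BL/6 mice of 3 months (C57BL/6J in the methods). No treatment, diet or genetic change is named for these animals, and the stage of the estrous cycle is not given. Each nucleus has 2 arrays, hereafter Arc1 and Arc2 and so on. The methods name a single pair of mice as the source, but the labels do not tie an array to a mouse, so a p-value measures only the spread between these arrays. The study made them to find genes that mark one nucleus, and the comparison for the kisspeptin and tachykinin genes is therefore one nucleus against another.

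Kisspeptins are cut from the *Kiss1* precursor and act on the receptor encoded by *Kiss1r*, which is carried by the neurons that release gonadotropin-releasing hormone. In the Arc, a group of neurons known as KNDy cells makes kisspeptin together with neurokinin B, encoded by *Tac2*, and dynorphin, encoded by *Pdyn*, and serves as a relay of gonadal hormone feedback. Substance P and neurokinin A come from *Tac1*. All these receptors couple mainly to Gq proteins and phospholipase C: the *Tacr3* receptor prefers neurokinin B, and the *Tacr1* receptor prefers substance P.

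The upstream sequences of the 3 peptide genes are shown because these genes carry the differences between nuclei described further on. They are the 250 bases before the start site in the RefSeq annotation of GRCm38.p6, all on the plus strand and written 5′ to 3′: chr1:133326962-133327211 for *Kiss1*, chr10:127724228-127724477 for *Tac2* and chr6:7554811-7555060 for *Tac1*. The start used for *Kiss1* lies inside the annotated span of the gene (chr1:133321887-133329722), whereas those of *Tac2* (chr10:127724478-127731768) and *Tac1* (chr6:7555061-7562978) are the first base of theirs. Capitals mark the matches to the motifs searched.
Kiss1: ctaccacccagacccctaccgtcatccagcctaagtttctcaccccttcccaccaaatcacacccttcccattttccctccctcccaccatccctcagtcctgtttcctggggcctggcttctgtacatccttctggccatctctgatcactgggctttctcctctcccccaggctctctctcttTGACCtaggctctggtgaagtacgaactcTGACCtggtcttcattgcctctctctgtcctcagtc
Tac2: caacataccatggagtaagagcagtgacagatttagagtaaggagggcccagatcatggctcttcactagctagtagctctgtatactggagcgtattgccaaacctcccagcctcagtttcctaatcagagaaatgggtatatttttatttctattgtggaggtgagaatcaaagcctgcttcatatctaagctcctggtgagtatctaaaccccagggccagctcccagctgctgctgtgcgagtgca
Tac1: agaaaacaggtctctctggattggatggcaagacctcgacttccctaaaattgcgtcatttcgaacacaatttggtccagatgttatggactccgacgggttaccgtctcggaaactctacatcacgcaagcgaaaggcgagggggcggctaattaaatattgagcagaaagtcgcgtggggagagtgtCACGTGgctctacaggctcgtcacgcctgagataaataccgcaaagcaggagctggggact
Motifs were searched as exact letters on both strands: the estrogen receptor half-site TGACC, the cyclic AMP response element TGACGTCA, the E-box CACGTG, the TATA box TATAAA and the core CACTTG bound by Nkx2 factors. The *Kiss1* window held TGACC at 2 places, beginning 65 and 36 bases before the start. Of 32817 promoter windows of this length, 35.2% held that motif. The *Tac1* window held a single CACGTG, 61 bases before the start, a motif found in 6.02% of all windows. The *Tac2* window held none of the 5 motifs. Of the receptor genes, *Tacr3* had a TATAAA 29 bases before its start, which 12.4% of windows have somewhere, and *Kiss1r* and *Tacr1* had no match. These matches are letters only and say nothing of binding.

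Signals below are the processed intensities of the deposited files after each array was scaled to a common 75th percentile, and they compare nuclei for 1 probe, never one probe with another. A probe counts as measured on an array where the scanner software marked it well above background. The lowest signal so marked lay between 79.3 and 132 scaled units depending on the array. Between 47.1% and 52.7% of the spots passed that mark on the 8 arrays, and no spot was saturated. The marker genes of each nucleus set the arrays of that nucleus apart in sum: *Agrp*, *Npy*, *Pomc* and *Ghrh* together gave 129288 to 132079 in the Arc and at most 5807 elsewhere. The DMH arrays also held the LH peptides, with *Hcrt* at 48.1% and *Pmch* at 80.5% of their LH means. The LH arrays correlated less with each other (r = 0.938 over the probes tested) than those of the other nuclei (0.971 to 0.981), and DMH markers such as *Npvf* read 406.5 on LH1 and 29.0 on LH2, so results of the members that rest on the LH are given without LH1 as well. The LH is then a single array, which the fit assumes to vary like the arrays of the other nuclei.

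Of the 7 member probes, 5 were measured on both arrays of some nucleus and were tested: both *Kiss1* probes, *Kiss1r*, *Tac2* and *Tac1*. The *Tacr3* and *Tacr1* probes were measured on none of the 8 arrays. Signals of 3 of the 5 tested probes depended on the nucleus by the F-test of limma with Benjamini-Hochberg adjustment, where 8.34% of all 28894 tested probes did. These were the brighter *Kiss1* probe, *Tac2* and *Tac1*, that is, a probe of each peptide gene. The *Kiss1r* probe and the dimmer *Kiss1* probe did not pass (adjusted p = 0.413 and 0.239). The plot of signals by array shows all 7 probes.

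**Figure D1:**
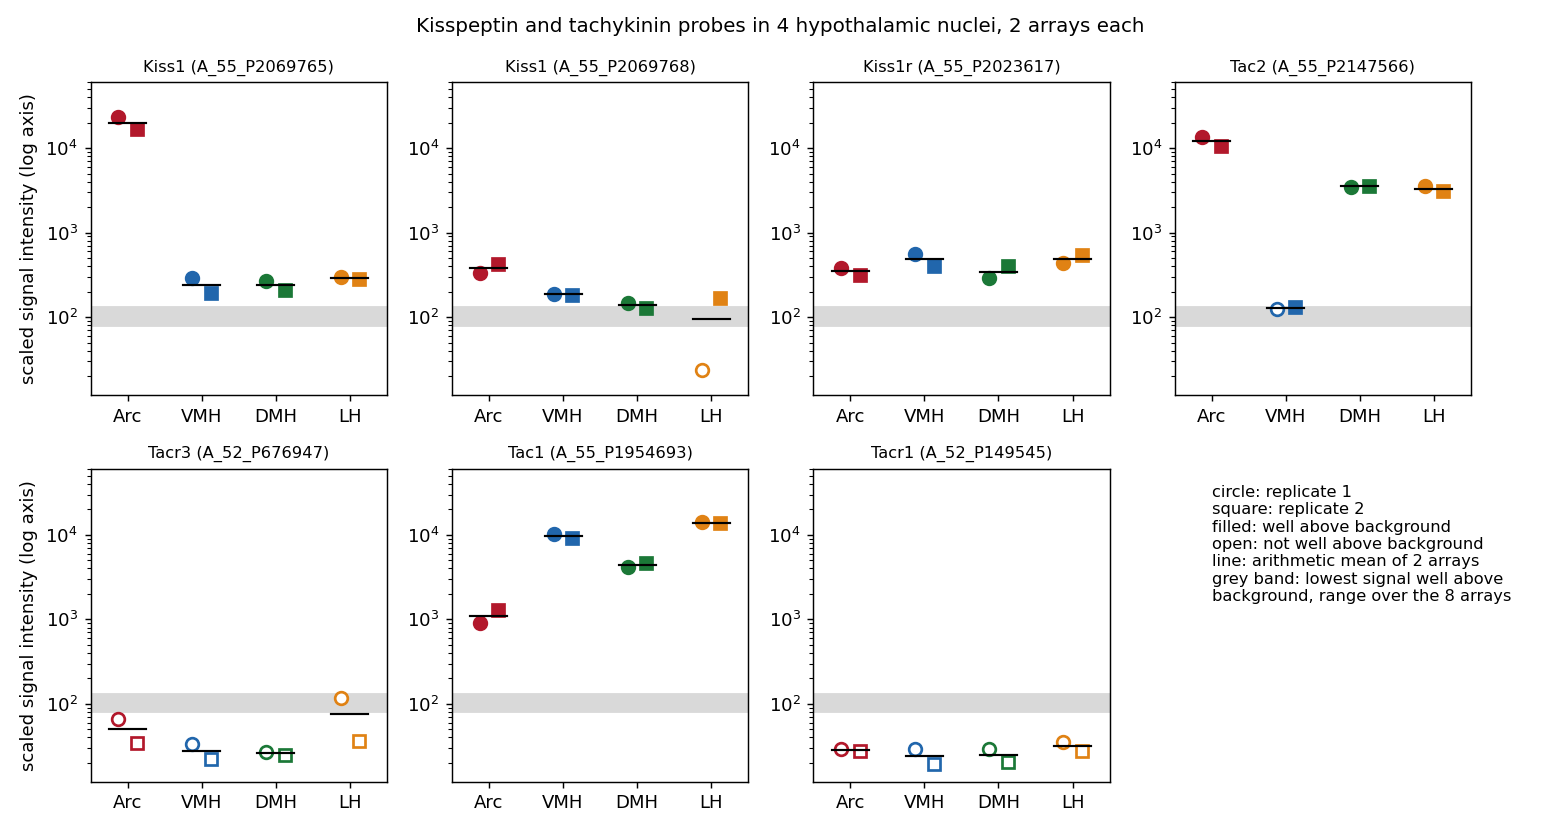
Scaled signal intensity (log axis) of the 7 kisspeptin and tachykinin probes in the Arc, VMH, DMH and LH, with circles for the first array of a nucleus, squares for the second, open symbols for arrays on which the probe was not well above background, and lines for the mean of 2 arrays. The grey band is the range over arrays of the lowest signal well above background, 79.3 to 132; *Tacr3* and *Tacr1* are open throughout, and *Tac2* in the VMH lies at that band.

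*Kiss1* was an Arc gene on these arrays. Its brighter probe, A_55_P2069765, read 23170 on Arc1 and 16617 on Arc2. The other 6 arrays gave 194 to 299.7: 287 and 194 in the VMH, 264 and 210 in the DMH, and 299.7 and 281 in the LH. Both Arc arrays therefore stood far above every other array, the VMH arrays overlapped those of the DMH and of the LH, and the DMH arrays lay below the LH arrays. The Arc mean was 19894 ± 4634 (SD, n = 2), against 241 ± 65.2 in the VMH, 237 ± 37.9 for the DMH and 290 ± 13.3 in the LH. The order by means was Arc, LH, VMH and DMH, and the last 3 neighbours in it did not differ beyond the spread of the arrays.

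The log2 difference of the Arc from the VMH was 6.38 (SE 0.28, limma adjusted p = 0.000287), from the DMH 6.38 (adjusted p = 0.000286) and from the LH 6.08 (adjusted p = 0.000351). In folds of geometric means, these are 83.1, 83.3 and 67.6. Among all probes tested, 2.4% were higher in the Arc than in the VMH, 0.533% than in the DMH and 3.32% than in the LH. Without LH1 the difference from the LH was 6.13 (adjusted p = 0.00112). The 3 differences outside the Arc were small: 0.00 for VMH minus DMH with a 95% interval of -0.66 to 0.67, -0.30 for VMH minus LH with -0.96 to 0.37, and -0.30 for DMH minus LH with -0.96 to 0.36. The Arc samples also held the most signal of 5 tanycyte and ependymal genes in sum (7141 to 7677, against 3123 to 5792 elsewhere). The genes did not all go this way. *Rax* and *Crym* were highest in the Arc, with means of 1549 and 1426. *Ccdc153* had means of 1015 in the Arc and 1023 in the VMH, *Col25a1* probe A_55_P2107715 was highest in the LH, and *Foxj1* was measured on no array. Of the pituitary genes, *Cga* read 1425 on Arc1 and 28.6 on Arc2, while *Gh*, *Prl* and *Tshb* were measured on no array. The part of these cells in the *Kiss1* signal was not tested.

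The second *Kiss1* probe, A_55_P2069768, was dim, and it gave a different picture of the same gene. It read 336 and 427 in the Arc, 190 and 183 in the VMH, 147 and 127 in the DMH, and 24.0 on LH1, where it was not well above background, and 168 on LH2. The Arc arrays were again the highest of the 8, and the LH arrays lay far apart, LH1 below and LH2 above both DMH arrays. Its means were 381 ± 64.5 in the Arc, 187 ± 4.77 in the VMH, 137 ± 14.4 for the DMH and 96.1 ± 102 in the LH (SD, n = 2).

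None of the 6 comparisons of the second probe passed the test of limma, and 1 had an unadjusted p under 0.05. Arc minus VMH was 1.02 on the log2 scale (SE 0.78, adjusted p = 0.545), Arc minus DMH 1.47 (adjusted p = 0.608) and Arc minus LH 2.58 (adjusted p = 0.0877). The spread of its LH arrays entered the standard error of every comparison. Without LH1, the 3 Arc differences passed, at 1.02 from the VMH (adjusted p = 0.0336), 1.47 from the DMH (adjusted p = 0.0235) and 1.17 from the LH (adjusted p = 0.0349). Without LH2 the LH rests on LH1, which did not measure the probe, and the Arc was at least 4.77-fold higher, or 2.26 on the log2 scale, a bound with no test. The 2 probes thus shared the direction Arc over each other nucleus, and 4 of the 6 signs in all, but the sizes differed: the VMH had 1.21% of the Arc mean on the brighter probe and 49.0% on the dimmer. The corresponding shares were 1.19% and 36.0% in the DMH, and 1.46% and 25.2% in the LH. The 25.2% includes LH1, which did not measure the dimmer probe. What part of the transcript each probe reads was not examined, and no test was made between the probes.

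*Tac2*, which encodes neurokinin B, was highest in the Arc as well, and it was lowest in the VMH. Its probe A_55_P2147566 read 13623 on Arc1 and 10678 on Arc2, 3436 and 3601 in the DMH, and 3522 and 3101 in the LH. In the VMH it read 124 on VMH1, where it was not well above background, and 131 on VMH2, where it was. The Arc arrays lay above all others, the DMH and LH arrays overlapped, and the VMH arrays lay far below them. The nucleus means were 12151 ± 2082 in the Arc, 3518 ± 116 in the DMH, 3311 ± 298 in the LH and 127 ± 4.44 in the VMH (SD, n = 2).

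All comparisons of *Tac2* passed except that of the DMH with the LH. The Arc exceeded the VMH by 6.56 on the log2 scale (SE 0.21, adjusted p = 0.000167), or 94.6-fold between geometric means, in which the VMH side holds VMH1, where the probe was not well above background. It exceeded the DMH by 1.78 (adjusted p = 0.0126), or 3.43-fold, and the LH by 1.87 (adjusted p = 0.00389), or 3.65-fold. With the same VMH values, VMH minus DMH was -4.79 (adjusted p = 0.000462), in which direction 0.945% of all tested probes passed, and VMH minus LH was -4.70 (adjusted p = 0.000386), in which 3.04% did. DMH minus LH was 0.09 with a 95% interval of -0.40 to 0.58 (adjusted p = 0.856).

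The values of *Tac2* in the LH were close without LH1: the Arc then exceeded it by 1.96 (adjusted p = 0.00700) and VMH minus LH was -4.60 (adjusted p = 0.000995). The Arc over DMH call was the least secure. It was lost without Arc1 (1.60, adjusted p = 0.104), Arc2 (1.95, 0.0672), DMH1 (1.74, 0.101) or DMH2 (1.81, 0.0835), and also without any scaling of the arrays (1.30, 0.108), while the direction held in each.

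The signal of *Tac2* outside the Arc can be set beside the genes that mark the Arc. In the DMH, *Tac2* had 29.0% of its Arc mean, while the agouti-related peptide gene *Agrp* had 1.06%, *Npy* 2.20%, *Pomc* 3.59% and *Ghrh* 19.3%. In the LH, *Tac2* had 27.3%, against 0.976% for *Agrp*, 3.64% for *Npy*, 2.76% for *Pomc* and 7.25% for *Ghrh*. In the VMH, *Tac2* had 1.05%, above *Agrp* at 0.803% and below *Npy* at 1.88%, *Ghrh* at 2.07% and *Pomc* at 9.48%. The *Tac2* mean in the VMH includes VMH1, where its probe was not well above background. *Tac2* thus had a larger share of its Arc mean in the DMH and the LH than any of these 4 markers. *Kiss1* did not by its brighter probe (1.19% and 1.46%), while by its dimmer probe it did (36.0% and 25.2%). The 25.2% includes LH1, on which the dimmer probe was not well above background. The DMH and LH arrays also shared the LH peptides given above, and whether that has a part in their like *Tac2* signals was not tested.

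**Figure D2:**
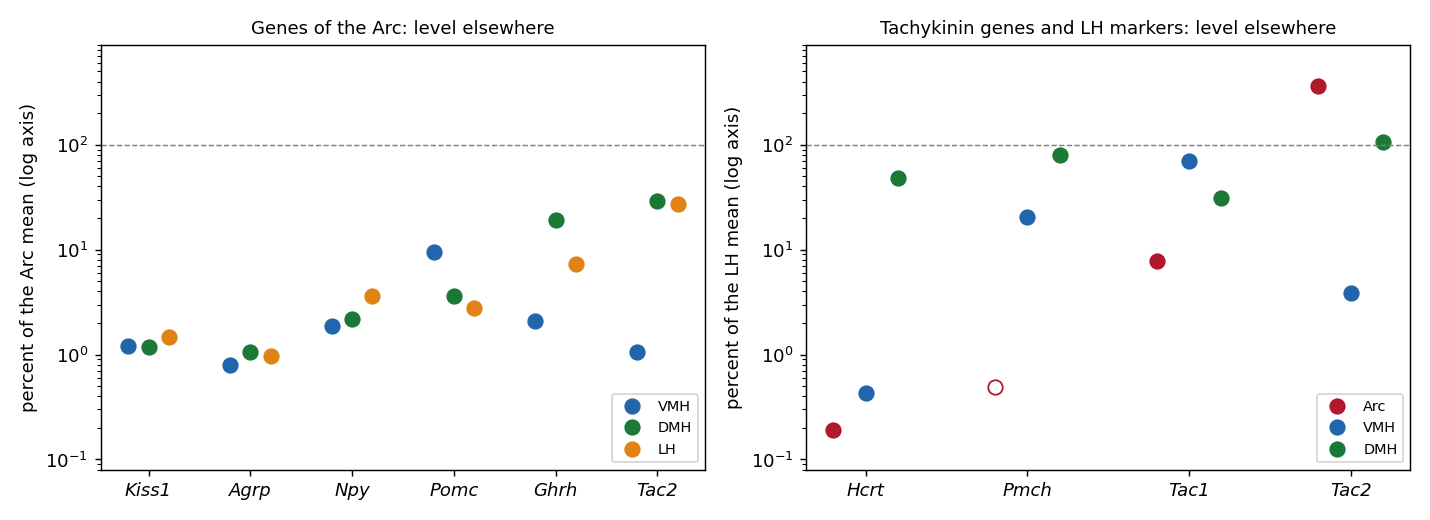
Mean signal of 2 arrays in one nucleus as a percent of the mean in the Arc (left, *Kiss1* by its brighter probe and *Tac2* with 4 Arc markers) or in the LH (right, *Tac1* and *Tac2* with *Hcrt* and *Pmch*), on log axes; the dashed line is 100%, and the open symbol of *Pmch* in the Arc is a signal not well above background on either array. *Tac2* in the DMH and LH sits at 29.0% and 27.3% of the Arc, while *Agrp* sits near 1%, and *Tac1* in the VMH sits at 69.7% of the LH, while *Hcrt* sits at 0.431%.

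*Tac1*, the precursor gene of substance P, ran the other way and was lowest in the Arc. Its probe A_55_P1954693 read 894 and 1295 in the Arc, 4124 and 4605 in the DMH, 10309 and 9184 in the VMH, and 14004 and 13945 in the LH. No array of one nucleus overlapped those of another, and the order was LH, VMH, DMH and Arc. The means were 13975 ± 41.6, 9747 ± 795, 4365 ± 340 and 1095 ± 284 (SD, n = 2) in that order, so that the LH had 12.8 times the Arc mean. The probe was well above background on all 8 arrays.

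In *Tac1* the Arc lay below every other nucleus: log2 Arc minus VMH was -3.18 (SE 0.24, adjusted p = 0.00114), Arc minus DMH -2.02 (adjusted p = 0.0126) and Arc minus LH -3.70 (adjusted p = 0.000838). These are 9.04-fold, 4.05-fold and 13.0-fold. A lower signal in the Arc passed for 3.52%, 0.727% and 6.02% of all tested probes in these comparisons. DMH minus LH was -1.68 (adjusted p = 0.0370), or 3.21-fold, and 0.664% of the probes passed in that direction. Between the neighbours LH and VMH, whose arrays did not overlap, VMH minus LH was -0.52 with a 95% interval of -1.08 to 0.04 and did not pass (adjusted p = 0.266). VMH minus DMH was 1.16 (unadjusted p = 0.00176, adjusted p = 0.0710) and missed the threshold by limma, though its arrays did not overlap and though normexp correction of the background put it past the threshold (1.12, adjusted p = 0.0202).

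Leaving out LH1 kept both LH calls of *Tac1*, at -3.70 for the Arc (adjusted p = 0.00226) and -1.68 for the DMH (adjusted p = 0.0402). The DMH under LH call was lost without DMH1 (-1.60, 0.212), DMH2 (-1.76, 0.129), VMH1 or VMH2 (-1.68, 0.0806 each), and also with the replicate number as a block (-1.68, 0.0594), with every probe in the fit (0.0679), with the DMH and LH arrays alone (0.147), and without scaling (-1.36, 0.130). The Arc under DMH call was lost without Arc1 (-1.75, 0.0863), DMH1 (-2.10, 0.0816) or DMH2 (-1.94, 0.0925).

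The LH marker genes were distributed otherwise than *Tac1*. The VMH had 69.7% of the LH mean of *Tac1*, where it had 0.431% of that of *Hcrt*, the hypocretin gene, and 20.4% of that of *Pmch*, the melanin-concentrating hormone gene. The DMH had 31.2% for *Tac1*, 48.1% for *Hcrt* and 80.5% for *Pmch*, and the Arc had 7.83% for *Tac1* and 0.193% for *Hcrt*, while neither of its arrays measured *Pmch*. The summed signal of 5 oligodendrocyte genes moved in a like order, with 107837 to 115340 in the LH, 39146 to 46114 in the VMH, 31291 to 32970 in the DMH and 18222 to 23995 in the Arc. Not every probe did: *Mbp* probe A_55_P1992160 had means of 3030 in the Arc and 1258 in the LH, and A_52_P604195 was lowest in the LH. Neither of these passed the F-test (adjusted p = 0.0917 and 0.287). The part of cell composition in the *Tac1* differences was not tested. In such dissected tissue, fewer cells that make a peptide and less of its RNA in each cell cannot be told apart.

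*Kiss1r* was the only receptor gene of the 3 that was measured. Its probe A_55_P2023617 was well above background on all 8 arrays but dim, at 381 and 318 in the Arc, 557 and 405 in the VMH, 289 and 402 in the DMH, and 435 and 549 in the LH. The arrays of the 4 nuclei overlapped in part, and the highest and lowest arrays of the 8 were in the VMH and the DMH. The means were 492 ± 81.0 in the LH, 481 ± 107 in the VMH, 349.6 ± 45.0 in the Arc and 346 ± 79.3 in the DMH (SD, n = 2), so that the highest was 1.02 times the next.

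None of the 6 comparisons of *Kiss1r* passed by limma, and none had an unadjusted p under 0.05. The largest was DMH minus LH at -0.52 with a 95% interval of -1.17 to 0.13 (adjusted p = 0.403), followed by Arc minus LH at -0.49 with -1.14 to 0.16 (adjusted p = 0.307). VMH minus DMH was 0.48 (adjusted p = 0.574), and Arc minus VMH was -0.45 with an interval of -1.10 to 0.20 (adjusted p = 0.434). Without LH1, DMH minus LH was -0.69 (adjusted p = 0.305) and Arc minus LH was -0.66 (adjusted p = 0.235). Differences as large as about 1 on the log2 scale therefore lay within the error.

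The receptor for neurokinin B, *Tacr3*, was not measured in any nucleus. Its probe A_52_P676947 read 66.4 and 34.0 in the Arc, 33.5 and 22.5 in the VMH, 26.8 and 25.0 in the DMH, and 118 and 36.1 in the LH. LH1 was the highest and lay above the lowest signal marked as measured on that array (79.3), but the software did not mark it. The substance P receptor gene *Tacr1*, by probe A_52_P149545, read 19.4 to 35.3 on the 8 arrays, all below the background mark. These readings are bounds on 1 probe each and do not show that a transcript was absent.

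In pairwise terms, 12 of the 30 comparisons of tested member probes passed. The methods use the Tukey-Kramer test for several groups. That test takes each probe alone, and its p-values were adjusted here by Benjamini-Hochberg over all tested probes, a step the methods do not give. With that adjustment 1 passed, that of *Tac2* in Arc against VMH. By limma, Arc against VMH and Arc against LH each had 3 of 5 probes, where 5.93% and 9.34% of all probes passed. Arc against DMH also had 3, where 1.26% did. Without the Arc, each comparison had 1: *Tac2* in VMH against DMH (2.04% of all probes) and VMH against LH (5.28%), and *Tac1* in DMH against LH (0.924%). The Arc exceeded all 3 of the other nuclei in the brighter *Kiss1* probe and *Tac2*, as in 0.339% of the probes, and lay below all 3 in *Tac1*, as in 0.457%. In *Tac2* the VMH also lay below all 3 others, as in 0.485%. The study chose its marker genes by a ratio of 10 or more to every other nucleus. With that ratio taken here between means of scaled signals, and only for probes measured on both Arc arrays, 0.111% of the probes were Arc genes, and the brighter *Kiss1* probe was among them with a ratio of 68.5 to the next nucleus. *Tac2* had a ratio of 3.45, and *Tac1* had one of 1.43 for the LH over the VMH.

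**Figure D3:**
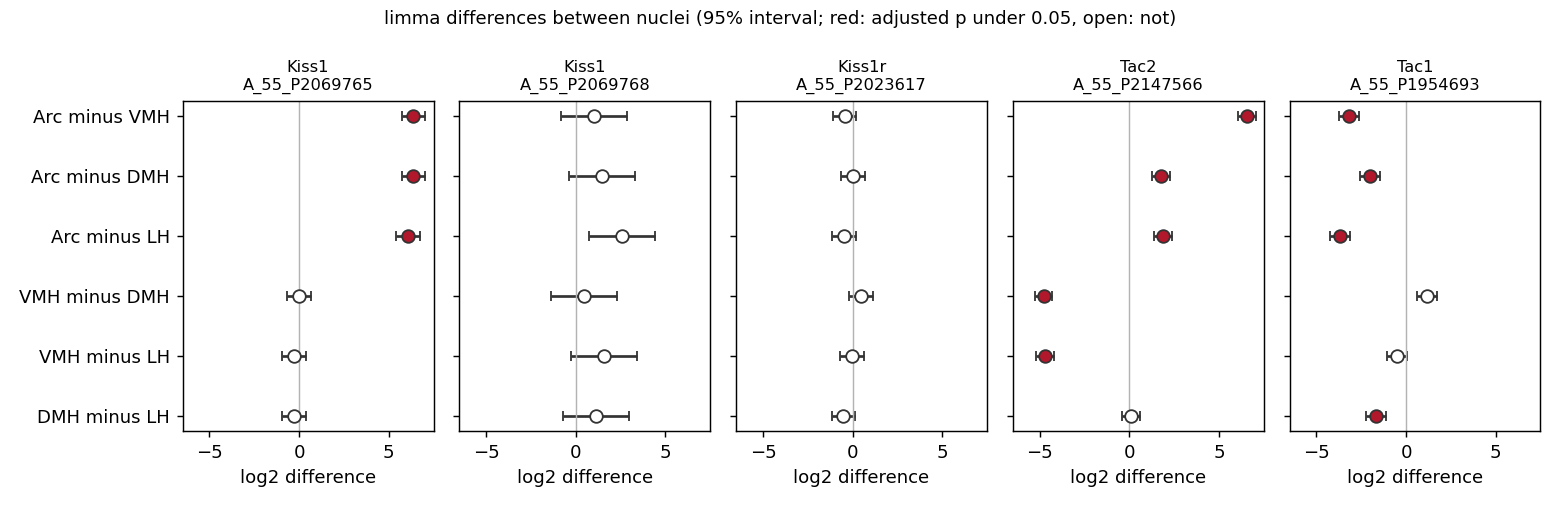
Log2 difference between each pair of nuclei for the 5 tested probes, from the limma fit of all 8 arrays, with 95% intervals; red symbols passed at an adjusted p under 0.05 and open symbols did not. *Kiss1* (A_55_P2069765) differs only where the Arc is compared, *Tac2* in all but DMH minus LH, *Tac1* in 4 of 6, and the second *Kiss1* probe and *Kiss1r* in none.

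The genes whose signals ran most like those of a member were listed by Pearson correlation over the 8 arrays, of which pairs share a nucleus. For *Kiss1* they were *Tnfrsf11b* (r = 0.996), the nuclear receptor gene *Nr5a2* (0.996) and *Gbp10* (0.995), with Arc means of 328, 2898 and 351 and means of 19.8 to 29.6 in every other nucleus, below the lowest signal marked as measured on any array, so that these correlations set Arc signal against background. For *Tac2* they were *Dlk1* (0.986), the diacylglycerol kinase gene *Dgkk* (0.986) and *Asb4* (0.985). *Dlk1* had means of 11975 in the Arc, 1394 in the VMH, 6780 for the DMH and 8024 in the LH, the same order as *Tac2* but for the DMH and the LH. For *Tac1*, *Stxbp5l* (0.993) and *Spout1* (0.992) are given, both with smaller ratios between nuclei, *Stxbp5l* running from 239 in the Arc to 609 in the LH. For *Kiss1r* they were *Dhodh* (0.967), *Zbtb14* (0.960) and the cathepsin gene *Ctsb* (0.949), none of which passed the F-test of limma (adjusted p = 0.394 to 0.600).

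Other genes of the pathway were read from lists of 79 genes in all, of which 90 probes were tested. Of these, 28 probes passed the F-test, or 31.1%, beside 8.34% of all probes. The lists were chosen with earlier results of these data known, so the shares describe the lists and do not test them. Among the KNDy neuron and hormone input genes, 12 of 25 probes passed (48.0%), and the median range between nuclei was 1.98 on the log2 scale, beside 0.65 for all probes. More of its probes were higher than lower in the Arc: 8 against 2 in the comparison with the VMH, 5 against 0 with the DMH and 11 against 3 with the LH. Of all tested probes, 2.4%, 0.533% and 3.32% were higher and 3.52%, 0.727% and 6.02% lower in the Arc. The counts are of probes, and 5 of the 8 and 4 of the 5 belong to *Esr1* and *Nr5a2*.

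The most significant of these was *Nr5a2*, whose probe A_51_P514449 read 2548 and 3248 in the Arc and 19.2 to 30.5 on the other 6 arrays, none of which measured it. The Arc was at least 27.7-fold higher than the VMH (adjusted p = 0.000256), 30.5-fold than the DMH and 28.1-fold than the LH. *Ghsr*, the ghrelin receptor gene, read 1122 and 1283 in the Arc and was measured nowhere else, which made the Arc at least 11.7-fold higher than the LH (adjusted p = 0.000614) and at least 12.7-fold higher than the DMH (adjusted p = 0.00278). The estrogen receptor gene *Esr1*, through which gonadal feedback reaches KNDy cells, passed the F-test on each of its 3 probes, though 1 of them, A_52_P237077, did not pass for Arc minus DMH (adjusted p = 0.0635). A_55_P2030883 read 1671 and 1651 in the Arc, 229 and 299 in the VMH, 331 and 303 in the DMH, and 187 and 139 in the LH, of which the last was not well above background, so that no other array came near those of the Arc. Its Arc differences on the log2 scale were 2.67 from the VMH (adjusted p = 0.00221), 2.39 from the DMH (0.00754) and 3.37 from the LH (0.00118).

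The mu opioid receptor gene *Oprm1* had its highest mean in the LH by probe A_51_P100309 (7282 and 6489, against 1552 and 1413 in the VMH), with an adjusted p of the F-test of 0.00558. By limma the LH exceeded the VMH (adjusted p = 0.00312) and the Arc (0.0399). It did not pass against the DMH, which read 3901 and 3951 (adjusted p = 0.147). The very bright second probe of *Oprm1* did not pass the F-test (adjusted p = 0.683). *Pdyn*, the dynorphin gene and the third peptide of the KNDy cells, did not pass (adjusted p of the F-test 0.155). Its signals were 2194 and 3429 in the Arc, 2755 and 3911 in the VMH, 3035 and 2588 in the DMH, and 1708 and 1246 in the LH. The arrays of the Arc, VMH and DMH overlapped, and both LH arrays lay below them.

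Of the other tachykinin genes, *Tac4*, which encodes hemokinin, was measured on no array. *Tacr2*, the neurokinin A receptor gene, had a probe of very bright signal, A_55_P2025328, with 22256 to 65910 on the 8 arrays. It did not pass the F-test (adjusted p = 0.671), and a second probe was measured on none. The probes of *Tacr2* therefore disagreed on whether its transcript was seen. The LH arrays of the bright probe lay far apart, with 62376 on LH1 and 22256 on LH2. Without LH1 its Arc minus LH was 1.49 on the log2 scale. Of the gonadotropin-releasing hormone genes and the related RF-amide peptides, 1 of 4 tested probes passed (25.0%), that of the receptor gene *Npffr1* (adjusted p = 0.0427), with means of 1073 in the VMH and 420 to 495 in the other nuclei. *Gnrh1* and its receptor gene *Gnrhr* were measured on no array.

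Of the Gq pathway genes downstream of the receptors, 8 of 33 probes passed (24.2%), with a median range of 0.96. Against the VMH, 12 probes were lower in the Arc and 0 were higher, where 3.52% of all probes were lower and 2.4% higher. Against the LH, 5 were lower and 0 were higher, where 6.02% and 3.32% of all probes were. The counts are of probes: the 33 belong to 25 genes, and *Plcb4* gave 2 of the 12. The summed oligodendrocyte signal given above was lower in the Arc as well. So was *Slc17a6*, the gene of a glutamate transporter of synaptic vesicles, at 1365 and 1618 in the Arc against 8341 and 10588 in the VMH. The part of cell composition in the Gq genes was not tested. *Plcb1*, a phospholipase C gene, read 1287 and 1155 in the Arc against 4974 and 3880 in the VMH by A_55_P2173313 (log2 difference -1.85, adjusted p = 0.00501). The inositol trisphosphate receptor gene *Itpr1* had means of 25650 in the VMH and 8895 to 10033 in the other nuclei (adjusted p of the F-test 0.0120). The arrestin gene *Arrb1* and the phospholipase C gene *Plcb4* by probe A_55_P2121980 were lowest in the Arc, with means of 11546 and 1305, and differed there from both the VMH and the LH. A second probe of *Plcb4*, A_55_P2121985, passed against the VMH (adjusted p = 0.0232) but not against the LH (adjusted p = 0.0615) or in the F-test (adjusted p = 0.0546), and a second *Plcb1* probe missed the F-test too (adjusted p = 0.0509). Of the peptide processing genes, 2 of 17 probes passed (11.8%), a share near the 8.34% of all probes. They were the prohormone convertase gene *Pcsk1*, highest in the LH with a mean of 2944, and *Pcsk2* by probe A_51_P229613, lowest in the Arc with 10197 (adjusted p of the F-test 0.0140 and 0.0495). A second *Pcsk2* probe, which read 249.6 on LH1 and 4896 on LH2, did not pass (adjusted p = 0.481), and without LH1 it did (adjusted p = 0.0156).

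Of the transcription factors and other regulators of transcription listed for *Kiss1* and *Tac2* neurons, 5 of 10 probes passed, with a median range of 1.64. Of all probes, 8.34% passed, and their median range was 0.65. The arrays do not tie these signals to such neurons. *Tbx3* read 16147 and 16919 in the Arc and 477 to 841 on the other arrays, with Arc differences of 4.52 from the VMH, 4.84 from the DMH and 4.43 from the LH on the log2 scale (adjusted p = 0.000557, 0.000632 and 0.000614). *Otp* followed the order of *Tac2* in part, with means of 1870 in the Arc, 454 in the DMH, 552 in the LH and 99.2 in the VMH (VMH1 not well above background), and it passed in every comparison but that of the DMH with the LH. *Six3* had means of 2133 in the Arc, 1163 in the VMH, 202 for the DMH (DMH1 not well above background) and 395 in the LH. *Nkx2-1* was higher than in the LH in the Arc (1.43, adjusted p = 0.0238) and in the VMH (1.99, adjusted p = 0.0116). Without LH1, the differences from the LH given for *Nr5a2*, *Ghsr*, *Esr1*, *Arrb1*, *Plcb4*, *Tbx3*, *Otp* and *Nkx2-1* passed as well (adjusted p from 0.000958 to 0.0436), as did the *Oprm1* and *Pcsk1* probes in the F-test (0.00874 and 0.0241). The heat map of pathway probes shows the 28 that passed.

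**Figure D4:**
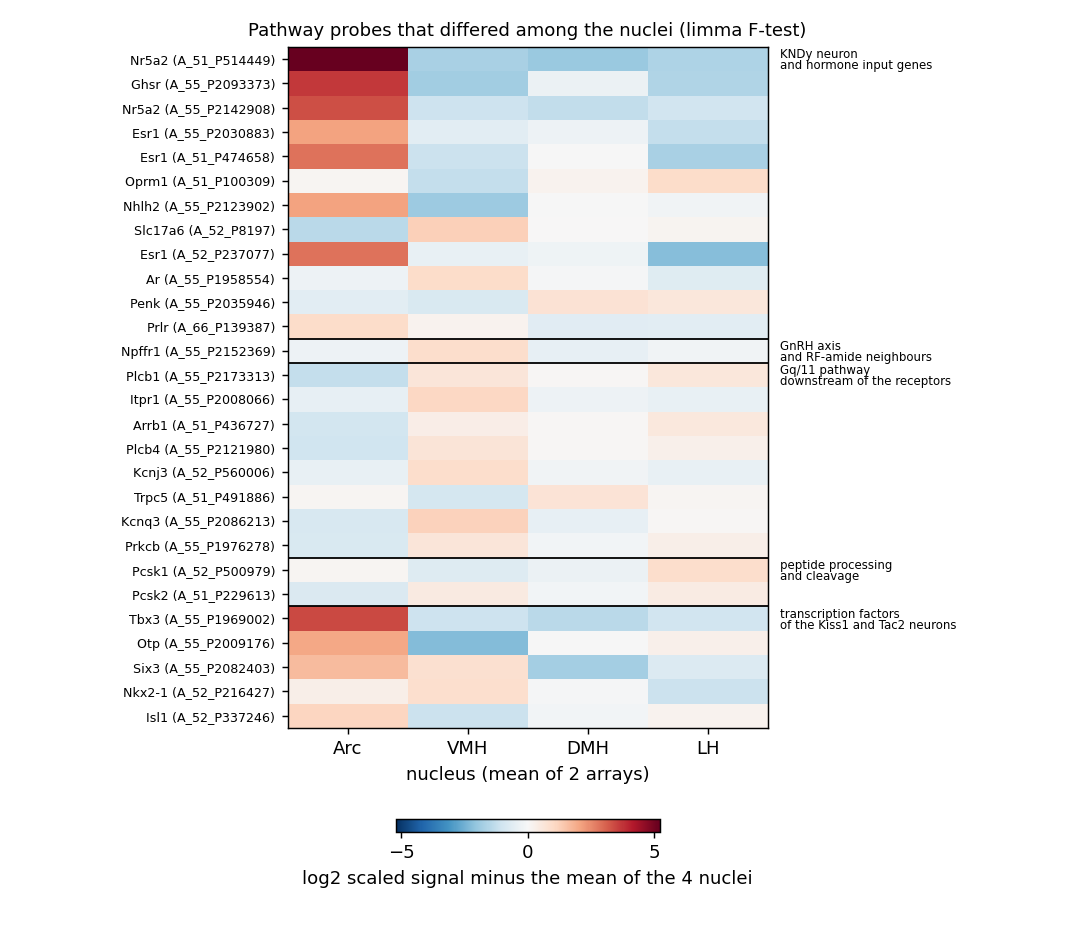
The 28 pathway probes that passed the limma F-test, in rows by list, with the nuclei in columns; color is the log2 scaled signal (mean of 2 arrays) minus the mean of the 4 nuclei. The red cells of *Nr5a2*, *Ghsr*, *Esr1* and *Tbx3* lie in the Arc column, and most Gq pathway rows are blue there.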

How the data were processed

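RNA of the Arc, VMH, DMH and LH was amplified, labeled, and hybridized to one-color Agilent arrays of 59305 spots and 55681 probes. The authors extracted spot intensities with Feature Extraction (v11.5.1.1 in the labels and methods, 10.7.3.1 in the file headers). Each deposited intensity is linear and background-subtracted, and arrays were not brought to one scale by the authors. The table of the whole series repeats these intensities, since 99.7% to 99.8% of its values equal the mean processed signal within 0.51.

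Spots flagged as outliers (126 to 364 an array) were left out. Remaining spots were averaged by probe, arrays were scaled by their 75th percentile and multiplied by a common factor, and log2 was taken. Probes were given RefSeq symbols of GRCm38.p6 through their identifiers (26762 of 28390, 94.3%), and that annotation also gave the printed loci and upstream sequences. The build behind the array design was not used. In limma 3.58.1 (R 4.3.3), the 4 nuclei were the terms of one linear model of 28894 probes, those that some nucleus had measured (well above background) on both its arrays. It had 4 residual and 3.02 prior degrees of freedom. Benjamini-Hochberg adjustment of the F-test and of each of 6 contrasts ran over all tested probes, with 0.05 as the threshold. The code was tested on simulated data. All arrays came from a single slide.

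A bound ("at least") compares a mean log2 signal with that of the dimmer nucleus raised on each array to the lowest signal marked as measured. Named genes are all members, the 3 genes most correlated with the brightest tested probe of each, up to 4 genes of each pathway list with the smallest F-test p that passed, and both other tachykinin genes; *Pdyn*, *Gnrh1*, and *Gnrhr* were named outside this rule. A gene that the rule names is not reported here. Members, lists, markers, and motifs were chosen with earlier results of these data known. Arrays that share a replicate number were checked for shared deviations: correlations over the 6 pairs of nuclei ran from -0.03 to 0.26, so the numbers were not taken to pair the samples. Alternatives were other scalings, background corrections, filters, moderations and tests, the series table, a replicate block, and leaving out each array. Probe sequences and protein sequences were not used here. The labels name Cy3 and the methods Cy5 as the dye, and the files hold the red channel.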

Additional observations from a re-analysis of the deposited data

How the results depend on the processing

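Of 259 alternatives of the 12 member differences that passed, all 259 kept their direction and 232 passed; of 389 alternatives of the 18 that did not pass, 13 did. The number of member differences that passed ran from 9 to 17 when 1 array was left out, and it was 8 with the filter on all 8 arrays, which drops *Tac2*, 10 without scaling, and 1 by the one-way analysis of variance with Tukey-Kramer tests of the methods. The pathway probes that passed, 28 in the main test, numbered 12 to 39 without 1 array and 12 by the methods' test.

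Without scaling, the arrays kept 75th percentiles of 815 to 1239. The differences that changed sign were all ones that did not pass. For the brighter *Kiss1* probe, VMH minus DMH (0.00) became -0.21 without scaling, -0.081 with the percentile over probes measured on all arrays, -0.028 with normexp, -0.00173 with the series table, and -0.28 to 0.28 when 1 array was left out, and DMH minus LH became 0.021 without scaling. DMH minus LH of the second probe ran from -0.30 without LH1 to 2.51 without LH2, where it rests on LH1, which did not measure the probe, and is at least 0.79. For *Kiss1r*, Arc minus DMH was -0.45 without scaling, -0.10 without Arc1, and from -0.21 to 0.27 over all arrays left out; VMH minus LH was 0.071 without scaling, -0.27 to 0.19 with 1 array left out, and 0.13 without LH2; and the ratio of the LH to the VMH was 0.883 without VMH2, 0.903 without LH2, and up to 1.21 without another array. DMH minus LH of *Tac2* was -0.00189 without LH2 and 0.18 without LH1. The causes were not tested.

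With the replicate number as a block, 3 member probes passed the F-test, 11 differences passed, and *Tac1* DMH minus LH did not (-1.68, adjusted p = 0.0594); 27 pathway probes passed. The labels tie no pair of arrays together, and the deviations of arrays with the same number did not all correlate, so they were not treated as pairs; the arrays numbered 1 shared one row of the slide and those numbered 2 the other, so that the block also stands for the row. Signal over background limits *Tacr3* and *Tacr1*, *Tac2* in the VMH, and the second *Kiss1* probe, and 2 arrays a nucleus limit every interval.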
